A study of Homo sapiens with 10 samples.

Results

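The desmosome components described here were 10 genes picked by symbol among the 60554 genes listed in the data, by a rule that uses no measured value, although earlier results of these data were known when they were picked. They were the desmosomal cadherins DSG2 and DSC2, the armadillo proteins JUP, PKP2, PKP3 and PKP4, the plakins DSP, PPL and EVPL, and the membrane protein PERP. Of these 10 genes, 8 passed the filter on low values, which kept protein-coding genes above 3 RPM (estimated counts scaled to a library total of 1000000) in at least 20% of the libraries, and PKP3 and EVPL did not. RNA came from Caco-2, a human colon carcinoma line that takes on features of enterocytes in culture. All cells derived from a stable clone carrying dCas9-KRAB, a Cas9 with no cutting activity fused to a repressor domain. By the labels, 5 libraries carried the empty guide plasmid (gCtl), 3 the guide g1 and 2 the guide g2, both guides being directed at the long non-coding RNA LHFPL3-AS2. No label said that the libraries of a group came from separate infections or cultures, so the p-values measure the spread between these libraries, which may be technical.

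Desmosomes are spot-like junctions that tie the keratin filaments of neighbouring epithelial cells together. Desmogleins and desmocollins are cadherins that bind across the gap between cells, plakoglobin (JUP) and the plakophilins (PKP) bind their cytoplasmic tails, and desmoplakin (DSP) links this plaque to keratins. Simple epithelia such as the intestine use DSG2 and DSC2, while DSG1, DSG3, DSC1, DSC3 and PKP1 are mainly found in stratified epithelia.

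A promoter window of each of 3 members is given here, namely those of the cadherin pair whose ratio differed between the groups and that of JUP, which was lower in the libraries labelled g1. Each is a 300-base RefSeq window around an annotated start on GRCh38.p14, written 5′ to 3′ on the strand of the gene, with the E-box CAGGTG (or CACCTG, its complement) in capitals. They lie at chr18:31497927-31498226 on the plus strand (DSG2), chr18:31102372-31102671 on the minus strand (DSC2) and chr17:41786662-41786961 on the minus strand (JUP).
DSG2: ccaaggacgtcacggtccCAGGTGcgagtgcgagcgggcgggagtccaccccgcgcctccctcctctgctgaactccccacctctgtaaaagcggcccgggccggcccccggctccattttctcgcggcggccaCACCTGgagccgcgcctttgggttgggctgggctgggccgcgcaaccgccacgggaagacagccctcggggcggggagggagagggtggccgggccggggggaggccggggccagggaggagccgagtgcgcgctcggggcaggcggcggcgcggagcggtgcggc
DSC2: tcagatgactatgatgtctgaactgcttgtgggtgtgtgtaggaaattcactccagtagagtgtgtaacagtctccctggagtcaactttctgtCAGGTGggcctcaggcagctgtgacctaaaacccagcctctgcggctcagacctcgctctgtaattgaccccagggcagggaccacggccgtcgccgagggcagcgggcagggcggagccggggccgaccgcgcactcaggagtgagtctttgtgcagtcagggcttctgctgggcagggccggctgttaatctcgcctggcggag
JUP: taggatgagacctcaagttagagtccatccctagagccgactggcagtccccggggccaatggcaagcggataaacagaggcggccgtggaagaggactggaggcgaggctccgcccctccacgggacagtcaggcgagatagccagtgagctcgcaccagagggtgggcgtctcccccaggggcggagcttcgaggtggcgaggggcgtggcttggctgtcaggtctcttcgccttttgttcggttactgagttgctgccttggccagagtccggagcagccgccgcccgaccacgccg
The DSG2 window held 2 E-boxes, the printed DSC2 window held 1, and the printed JUP window held none. DSC2 and JUP each have a second listed window, not printed, which held none for DSC2 (chr18:31101211-31101510) and 2 for JUP (chr17:41785927-41786226). Windows of 6 of the 10 members were listed, 9 windows in all, and windows of PKP2, PKP3, PPL and EVPL were not used here. On either strand, 4 of these 9 windows held CAGGTG, against 20.6% of all 35116 promoter windows of the same length. The GC box GGGCGG was in 8 of the 9 windows and in 45% of all windows, and CTTTGA or CTTTGT in 1 of the 9, a DSC2 window, and in 26.2% of all windows. The GC content of the members' windows was 60.7% to 77%, above the median of 58.7% over all windows. The members' E-boxes did not overlap either of the other motifs. DSG2 (chr18:31498043-31549008) and DSC2 (chr18:31058840-31102522) belong to the same cadherin cluster, with 395520 bases between them.

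The libraries held between 3838803 and 8730468 estimated counts. LHFPL3-AS2, which both guides target, was not detectably lower with either guide. As a non-coding gene it was outside the filter and was fitted among 23413 genes of every type. It rested on few estimated counts, 57 summed over gCtl, 54 over g1 and 57 over g2. Its log2 fold change was 0.61 with an SE of 0.42 for both guides together (edgeR adjusted p = 0.381). It was 0.37 for g1 and 0.90 for g2. The study reported its reduction by qPCR, and counts this low do not settle the point. The groups are therefore called by their labels throughout. The summed level of 9 epithelial and enterocyte markers was 1902 to 2519 RPM in gCtl and 1861 to 2256 RPM in the other libraries. Of 6 stratified squamous markers, KRT5, KRT14 and KRT1 were at 0 in every library, and the list summed to 1.59 to 10.2 RPM in gCtl and 1.94 to 2.66 RPM in the others. The 4 goblet cell markers summed to 17.1 to 25.6 RPM in g2 against 0.176 to 1.15 RPM in gCtl and 0.687 to 0.860 RPM in g1. The 5 leukocyte markers, nearly all LST1 and with TYROBP at 0, summed to 27.7 to 61.1 RPM in gCtl and 56.0 to 95.1 RPM in the other libraries, and the 7 fibroblast markers to 5.28 to 11.1 and 6.37 to 11.3 RPM. The part of these differences in the results below was not tested.

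In gCtl, PERP and DSP were the most abundant members per unit of length. On the TPM scale, which adjusts for length and was computed from the estimated counts and annotated transcript lengths, PERP was at 94.7 ± 18.1 (SD, n = 5) and DSP at 90.1 ± 10.3, and their libraries overlapped. PKP4 at 54.1 ± 3.64 TPM and JUP at 47.5 ± 4.95 TPM followed and overlapped with each other. PKP2 was at 18.0 ± 2.44 TPM and PPL at 16.8 ± 5.59 TPM, again with overlapping libraries. DSG2 at 10.3 ± 0.213 TPM lay below both in every gCtl library and above DSC2 at 6.98 ± 1.51 TPM. PKP3 was at 1.59 ± 0.479 TPM, and EVPL had 1 estimated count over the 5 gCtl libraries. This library type reads RNA from its polyadenylated end, where counts do not grow with length, so dividing by length lowers every long transcript in this order. It also raises JUP and PPL, whose places by TPM rest largely on short retained-intron transcripts. In gCtl, JUP-011 (598 bases) averaged 13.9 RPM beside 39.4 RPM for JUP-001 (3200 bases). PPL-004 (652 bases) averaged 5.23 RPM beside 13.2 RPM for PPL-001 (6238 bases). By normalized CPM, that is RPM after TMM scaling without division by length, the order was different. DSP at 665 ± 91.2 (SD, n = 5) lay above PERP at 306 ± 53.1, and DSG2 at 45.3 ± 1.23 lay above PKP2 at 34.1 ± 2.41 and PPL at 20.7 ± 4.18 in every gCtl library.

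The values that follow are normalized CPM and compare libraries, not genes. DSG2 varied little among the gCtl libraries, with a coefficient of variation of 2.71%, at percentile 0.206 of the 11640 genes tested. It had 179 to 268 estimated counts per gCtl library, where counting alone would be expected to spread more than this. The narrow gCtl range of DSG2 may thus be partly chance. PKP4 and PKP2 were also even, at 6.91% and 7.09%, where the median gene had 18.3%. JUP was the least even of the 8 members tested, at 24%.

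**Figure D1:**
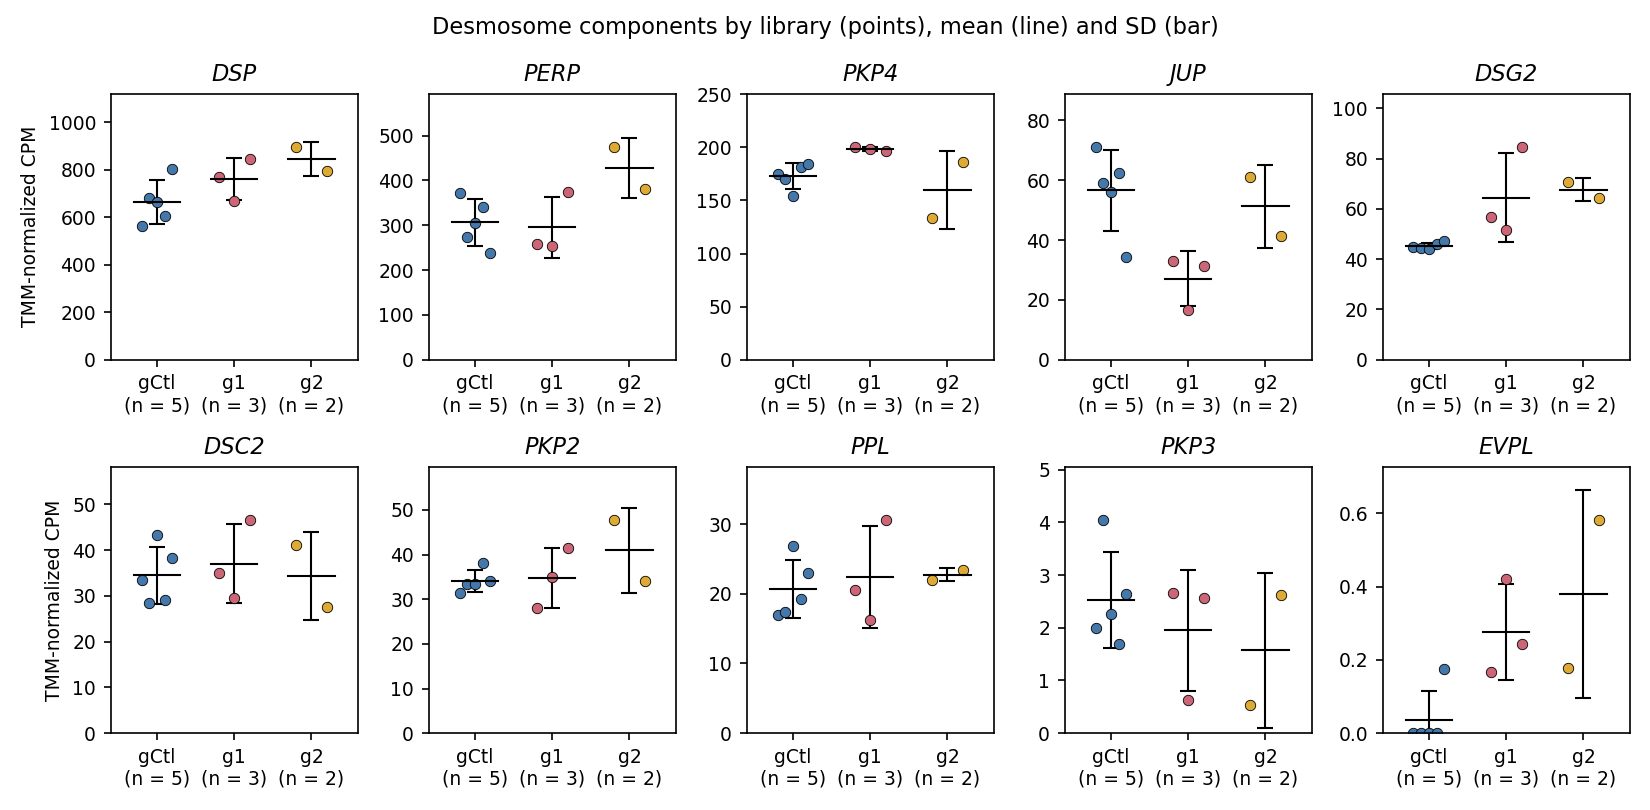
Normalized CPM (y axis, linear from 0) of the 10 desmosome components in each library of gCtl, g1 and g2 (x axis), with the group mean (line) and SD (bar). DSG2 sits between 44.1 and 47.1 in gCtl and at 51.7 or above in every other library, and JUP is at 33.2 or below in the 3 g1 libraries.

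With g1 and g2 as 1 group of 5 libraries against 5 gCtl libraries, no member was called. To be called, a gene needed a fold change of 1.5 or more and an adjusted p of 0.05 or less (edgeR's quasi-likelihood test, Benjamini-Hochberg method over all 11640 genes), and 19.2% of all genes tested met it. DSG2 was at an adjusted p under 0.05 with a fold change under 1.5, as 1 of the 8 members tested against 23.6% of all genes past the adjusted p at any fold. At an unadjusted p under 0.05 there were 2 members, DSG2 and JUP, where the share of all genes is at least the 23.6% past the adjusted p. DESeq2 called 0 members and limma on log2(RPM + 1) called 1, which was JUP. For g1 against gCtl, 1 of 8 members was called, JUP, which was lower, where 16.7% of all genes were called in either direction and 9.91% as lower. For g2 against gCtl the count was 0 of 8 against 23.7% of all genes. At an unadjusted p under 0.05 were DSG2 and PERP, where the share of all genes is at least the 26% past the adjusted p. DESeq2 called 1 member (DSG2) and limma 0. The median log2 fold change of the 8 members was 0.13 for both guides together, 0.11 for g1 and 0.20 for g2, beside medians over all genes of 0.02, 0.01 and -0.0017. The comparisons share the gCtl libraries. In RNA from whole cultures, fewer cells expressing a gene and less RNA of it per cell cannot be told apart.

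**Figure D2:**
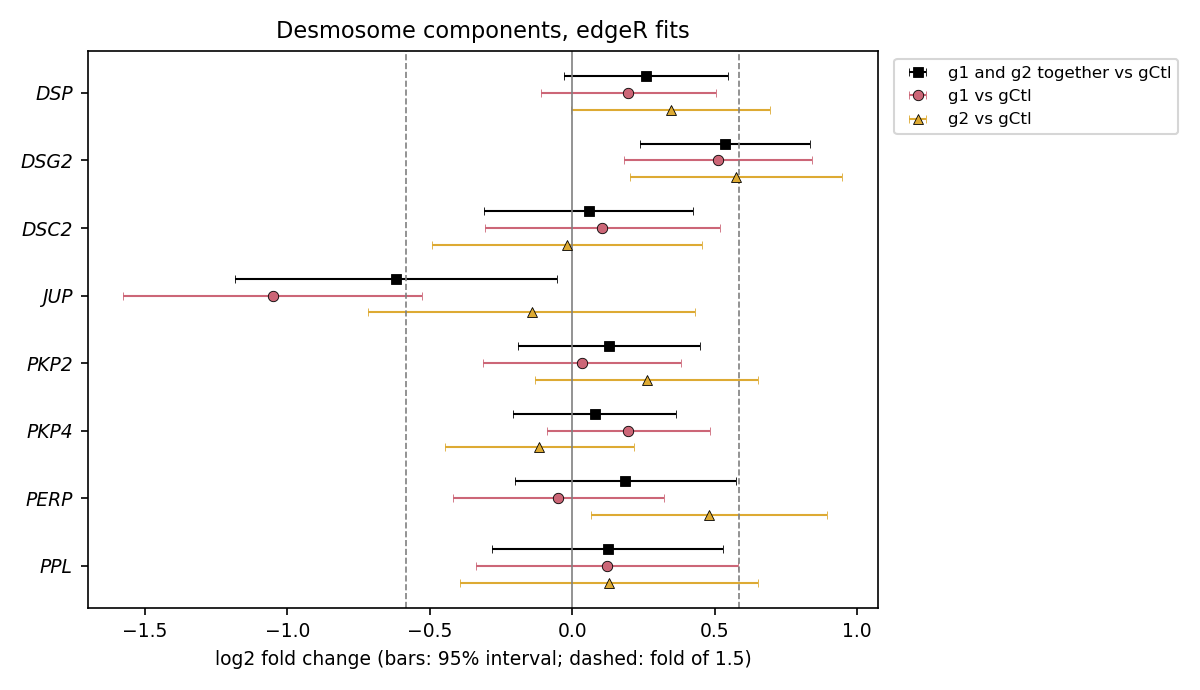
Log2 fold change against gCtl (x axis) of the 8 tested desmosome components (y axis) for g1 and g2 together, g1 and g2, with 95% intervals as bars and the 1.5-fold limits dashed. DSG2 lies above 0 in all 3 comparisons, at 0.54, 0.51 and 0.58. JUP is beyond the lower limit at -0.62 for both guides together (not called) and at -1.05 for g1, and inside it at -0.14 for g2.

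DSG2, the desmoglein of simple epithelia, was higher in every library labelled g1 or g2 than in any gCtl library. Its normalized CPM was 44.7, 44.6, 44.1, 46.0 and 47.1 in gCtl, 56.8, 51.7 and 84.8 in g1, and 70.8 and 64.4 in g2. Such non-overlap upwards was found for 7.13% of all genes with both guides together, 13.1% for g1 and 18.2% for g2. The log2 fold change was 0.54 with an SE of 0.14 for both guides together (1.45-fold, adjusted p = 0.0128 in edgeR). It was 0.51 for g1 (1.43-fold, edgeR adjusted p = 0.0294) and 0.58 for g2 (1.49-fold, edgeR adjusted p = 0.0249). At any fold, 20.1% of all genes passed the adjusted p for g1 and 26% for g2. The guides did not differ detectably, with a log2 difference of 0.06 and a 95% interval from -0.35 to 0.47.

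Among the g1 libraries, replicate 3, the deepest of all 10, was the highest for DSG2, and without it the log2 fold change for g1 was 0.24 (edgeR adjusted p = 0.293). Leaving out gCtl replicate 1, 2, 3 or 4 gave adjusted p-values of 0.0556, 0.0590, 0.0614 and 0.0593 for g1, and leaving out g2 replicate 1 or 2 gave 0.101 and 0.0634 for g2. With both guides together the adjusted p stayed between 0.00752 and 0.0381 whichever library was left out. DSG2 has a count-weighted transcript length of 5767 bases, against a median of 2789 over the genes tested. With a trend on transcript length removed its log2 fold change was 0.42 (edgeR adjusted p = 0.0408) for both guides together, 0.40 (0.0798) for g1 and 0.45 (0.0705) for g2. Nearly all of its counts were assigned to DSG2-001, whose share was 95.2% to 100% in each library.

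DSC2, the desmocollin that pairs with DSG2, was not detectably different. Its normalized CPM was 33.5, 28.5, 43.2, 29.1 and 38.2 in gCtl, 35.0, 29.5 and 46.5 in g1, and 41.1 and 27.5 in g2. The 3 groups overlapped widely. The log2 fold change for both guides together was 0.06, with a 95% interval from -0.31 to 0.43 (edgeR adjusted p = 0.834). Its sign turned to -0.04 with library totals in place of TMM. DSC2-001 extends 7134 bases beyond the 3′ end of DSC2-002, so reads can tell these transcripts apart. DSC2-001 took 37.3% to 48.5% of the DSC2 counts in gCtl, 42.7%, 80.9% and 60.8% in g1, and 34.4% and 58.3% in g2.

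The ratio of DSG2 to DSC2 within a library does not depend on scaling between libraries. As log2 of the ratio of RPM + 1, it was 0.41, 0.63, 0.03, 0.63 and 0.30 in gCtl, 0.69, 0.79 and 0.85 in g1, and 0.77 and 1.20 in g2. The highest gCtl library was below the lowest library of the other groups. The means were 0.40 ± 0.25 (SD, n = 5) and 0.86 ± 0.20 (SD, n = 5), and the difference of 0.46 gave an exact two-sided permutation p of 0.00794, the smallest possible with 5 against 5 libraries, and 0.0238 after adjustment over 3 ratios. With any single library left out the difference was 0.37 to 0.52. Because the groups did not overlap, the exact permutation p was then bound to be 0.0159 (0.0476 adjusted). That is the smallest possible with 4 against 5 libraries, so these p-values add no further support. Of the pair, DSG2 differed by 0.54 and DSC2 by 0.06 on the log2 scale in the edgeR fit.

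JUP (chr17:41754604-41786931), the plakoglobin that binds the tails of desmosomal and classical cadherins, fell in the libraries labelled g1. Its normalized CPM was 71.2, 58.9, 56.2, 62.3 and 34.5 in gCtl, 33.2, 16.5 and 31.4 in g1, and 61.1 and 41.4 in g2. The g1 libraries were all below gCtl, although g1 replicate 1 was close to gCtl replicate 5, and the g2 libraries lay within the gCtl range. Non-overlap downwards was found for 13.5% of all genes in g1. JUP fell by 1.05 on the log2 scale for g1, with an SE of 0.25 (2.07-fold lower, edgeR adjusted p = 0.00797), and leaving out any single library left an adjusted p of 0.00133 to 0.0409. A test against a fold of 1.5 in place of 0 change gave an adjusted p of 0.144 (glmTreat).

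For g2 the log2 fold change of JUP was -0.14, with a 95% interval from -0.72 to 0.43 (edgeR adjusted p = 0.734). JUP was 0.91 higher on the log2 scale in g2 than in g1, with an SE of 0.29, an unadjusted p of 0.00705 in edgeR and an adjusted p of 0.0867, so the guides were not shown to differ. That difference passed without gCtl replicate 5, the low gCtl library, at 0.92 (edgeR adjusted p = 0.0421). For both guides together it was -0.62 (edgeR adjusted p = 0.102), and without g2 replicate 1 it was -0.89 (0.0152) and without gCtl replicate 5 it was -0.76 (0.0473).

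The JUP counts were divided among 4 annotated transcripts. The coding transcripts JUP-001, JUP-004 and JUP-008 share their 3′ end, and JUP-011 is a 598-base retained-intron transcript (chr17:41758172-41763077) inside the gene. JUP-001 took 53.0% to 76.1% of the JUP counts in gCtl and 82.7% in g2 replicate 1, but at most 1.26% in the g1 libraries and 0.828% in g2 replicate 2, where JUP-004 took 37.8% to 63.5%. Reads from a shared 3′ end do not separate these transcripts, so their sum is used here. That sum was 63.3, 43.9, 45.4, 52.1 and 19.0 RPM in gCtl, 13.4, 9.46 and 16.0 RPM in g1, and 48.1 and 25 RPM in g2. JUP-011 was at 10.9 to 17.6 RPM in gCtl, at 21.2, 7.31 and 13.5 RPM in g1, and at 7.50 and 13.9 RPM in g2. With coding transcripts alone JUP was lower by more in g1, with a log2 fold change of -1.68 (edgeR adjusted p = 0.00613), and g2 was 1.59 above g1 (0.0475).

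**Figure D3:**
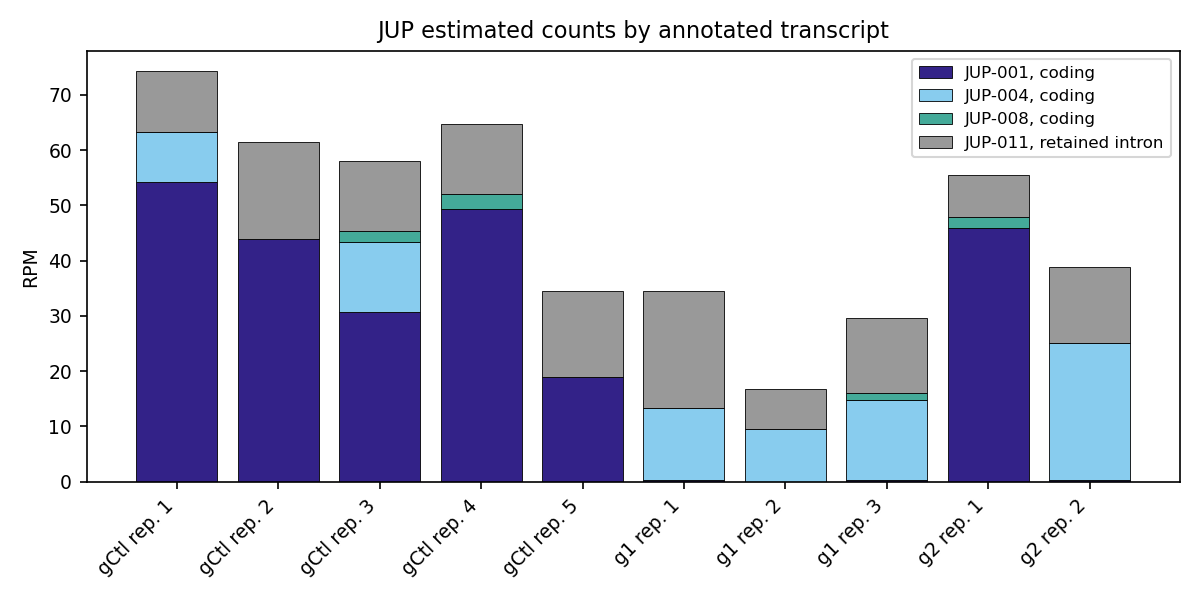
RPM (y axis, linear from 0) assigned to the 4 JUP transcripts with counts in each of the 10 libraries (x axis), stacked. The coding part is 9.46 to 16.0 RPM in g1, 25 and 48.1 RPM in g2 and 19.0 to 63.3 RPM in gCtl, while the retained-intron part is 7.31 to 21.2 RPM over all libraries.

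CTNNB1 (β-catenin), the armadillo protein of the adherens junction and a close relative of JUP, fell with both guides together by 1.10 on the log2 scale (edgeR adjusted p = 0.00219). It fell by 1.30 for g1 (edgeR adjusted p = 0.00144) and by 0.84 for g2 (0.0261). The log2 ratio of JUP to CTNNB1 averaged 1.11 ± 0.32 (SD, n = 5) over the gCtl libraries and 1.47 ± 0.43 (SD, n = 5) over the others, a difference of 0.36 with an exact permutation p of 0.190 (0.278 adjusted).

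The plakophilins, which gather desmoplakin and the cadherins in the plaque, were not called in any comparison. PKP2 (chr12:32790745-32896840) had a normalized CPM of 31.5 to 38 in gCtl, 28.0, 35.0 and 41.4 in g1, and 47.7 and 34.2 in g2. Its log2 fold change for both guides together was 0.13, with a 95% interval from -0.19 to 0.45 (edgeR adjusted p = 0.564). PKP2-001 took at least 51.3% of its counts in 4 gCtl libraries, and 78.6% and 55.8% in g2. It took at most 0.00030% in gCtl replicate 5 and in g1, where PKP2-002 took 54.4% to 70.9%. The 3′ ends of these 2 transcripts lie 109 bases apart, so 3′ reads separate them poorly and only the gene total is compared. PKP2-003, which ends 102564 bases from the 3′ end of the gene, took 26.1% to 48.5% in gCtl and 20.4% to 43.8% in the others.

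PKP4 (chr2:158456964-158682879), an armadillo protein found at both desmosomes and adherens junctions, had a normalized CPM of 155 to 185 in gCtl. It was at 201, 199 and 196 in g1, above every gCtl library, and at 134 and 186 in g2, on either side of the gCtl range. Non-overlap upwards with gCtl was found for 13.1% of all genes in g1. The log2 fold change was 0.20 for g1 (edgeR adjusted p = 0.329) and -0.12 for g2 (0.618), and g2 against g1 was -0.31, with a 95% interval from -0.68 to 0.05 (edgeR adjusted p = 0.316).

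PKP3 (chr11:392614-404908) rested on few counts. It had 8, 22, 13, 7 and 15 rounded counts in gCtl, 16, 3 and 21 in g1, and 3 and 18 in g2, which overlapped. In a fit without the filter its log2 fold change for both guides together was -0.46 with an SE of 0.46 (edgeR adjusted p = 0.529), so no difference was detectable at this depth. The log2 ratio of PKP2 to PKP3 averaged 3.36 ± 0.39 (SD, n = 5) over the gCtl libraries and 3.84 ± 0.81 (SD, n = 5) over the others, with an exact permutation p of 0.278 (0.278 adjusted).

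DSP (chr6:7541575-7586717), the plakin that anchors keratins to the desmosome, was not called in any comparison. Its normalized CPM was 564, 683, 666, 607 and 804 in gCtl, 771, 670 and 846 in g1, and 898 and 794 in g2. All the libraries labelled g1 or g2 lay above the gCtl mean of 665, but gCtl replicate 5 lay above 3 of them. The log2 fold change was 0.26 for both guides together, with a 95% interval from -0.03 to 0.55 (edgeR adjusted p = 0.176), and it was 0.09 (0.659) once the length trend was removed. For g2 alone it was 0.35 (edgeR adjusted p = 0.131).

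PPL (chr16:4882507-4960741), periplakin, which binds keratins and lies beneath the cornified envelope of stratified cells, had a normalized CPM of 17.0 to 26.9 in gCtl, 20.5, 16.3 and 30.6 in g1, and 22.1 and 23.4 in g2. Its log2 fold change for both guides together was 0.12, with a 95% interval from -0.28 to 0.53 (edgeR adjusted p = 0.670). EVPL (chr17:76004502-76027452), envoplakin, which forms dimers with periplakin, had 0, 0, 0, 0 and 1 counts in gCtl, 1, 2 and 2 in g1, and 1 and 4 in g2. No fold is given for EVPL, since 1 library alone exceeded 3 counts.

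PERP (chr6:138088505-138107511), a tetraspan membrane protein of desmosomes, was highest in g2. Its normalized CPM was 373, 274, 306, 341 and 238 in gCtl, 259, 254 and 374 in g1, and 475 and 380 in g2. The g2 libraries lay above every gCtl and g1 library, although g2 replicate 2 exceeded the highest gCtl and g1 libraries only slightly. Non-overlap upwards with gCtl was found for 18.2% of all genes in g2. The log2 fold change was 0.48 for g2, with a 95% interval from 0.07 to 0.90 (edgeR adjusted p = 0.0802), and -0.05 for g1 (0.872). Between the guides it was 0.53 (unadjusted p = 0.0257 and adjusted p = 0.172 in edgeR).

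In the comparison of g2 with g1, 0 of the 8 members were called by edgeR, where 4.97% of all genes were. At an unadjusted p under 0.05 there were 2 members (JUP and PERP), where the share of all genes is at least the 5% past the adjusted p. DESeq2 called 1 member (JUP) and limma 0.

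Summed over the 10 members, the level was 1312 to 1407 normalized CPM in gCtl, 1406, 1273 and 1655 in g1, and 1750 and 1554 in g2. DSP made up 43.0% to 57.2% of this sum in gCtl and 51.1% to 54.8% in the other libraries. PERP made up 16.9% to 28.4% in gCtl and 18.4% to 27.1% in the others. DSG2 made up 3.31% to 3.46% in gCtl and 4.04% to 5.12% in the others, and JUP 2.45% to 5.43% in gCtl, 1.29% to 2.36% in g1, and 3.49% and 2.67% in g2.

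The partners of the desmosome were described from lists of related genes. Of 7 further desmosomal genes, mostly of stratified epithelia, DSG3 alone passed the filter, with a log2 fold change of 0.65 (SE 0.44) for both guides together (edgeR adjusted p = 0.292), and DSG1 and DSG4 were at 0 in every library. Of 4 other plakins, 1 was called, DST (dystonin), where 19.2% of all genes were for both guides together. An epithelial form of DST links keratins to hemidesmosomes, and its transcripts were not split here. DST rose from 218 to 277 normalized CPM in gCtl to 486, 328 and 1078 in g1 and 645 and 569 in g2, by 1.35 on the log2 scale (edgeR adjusted p = 0.00132). PLEC, MACF1 and EPPK1 were not called in any comparison.

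Of 5 keratins of simple epithelia, which DSP binds, 4 were tested. With both guides together 0 were called by edgeR, against 19.2% of all genes. An unadjusted p under 0.05 was found for 3, where the share of all genes is at least 23.6%. For g2, 2 of the 4 were called, against 23.7% of all genes. KRT18 fell by 0.78 (edgeR adjusted p = 0.0494) and KRT20, a keratin of mature enterocytes and goblet cells, rose by 1.91 (0.00307). KRT20 rested on few counts, 67 summed over gCtl, 64 over g1 and 128 over g2. KRT20 was also higher in g2 than in g1, by 1.65 (edgeR adjusted p = 0.0408). KRT8, the partner of KRT18, had a log2 fold change of -0.47 for both guides together (edgeR adjusted p = 0.171).

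In the core of the adherens junction, 1 of 4 genes was called for both guides together, CTNNB1 as given above, against 19.2% of all genes. For g2, 2 of the 4 were called, against 23.7% of all genes. They were CTNNB1 and CTNND1 (p120-catenin), which rose by 0.87 on the log2 scale (edgeR adjusted p = 0.00209). CDH1 (E-cadherin) had a log2 fold change of -0.33 for both guides together (edgeR adjusted p = 0.133). Of 11 genes known to regulate desmosomes, 10 were tested and 2 were called for g2, against 23.7% of all genes. PRMT1, an arginine methyltransferase that acts on PKP2, fell for g2 by 0.83 (edgeR adjusted p = 0.00375) and by 1.18 in g2 against g1 (0.0025). Its log2 fold change was 0.35 for g1 (edgeR adjusted p = 0.103) and -0.01 for both guides together (0.973).

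**Figure D4:**
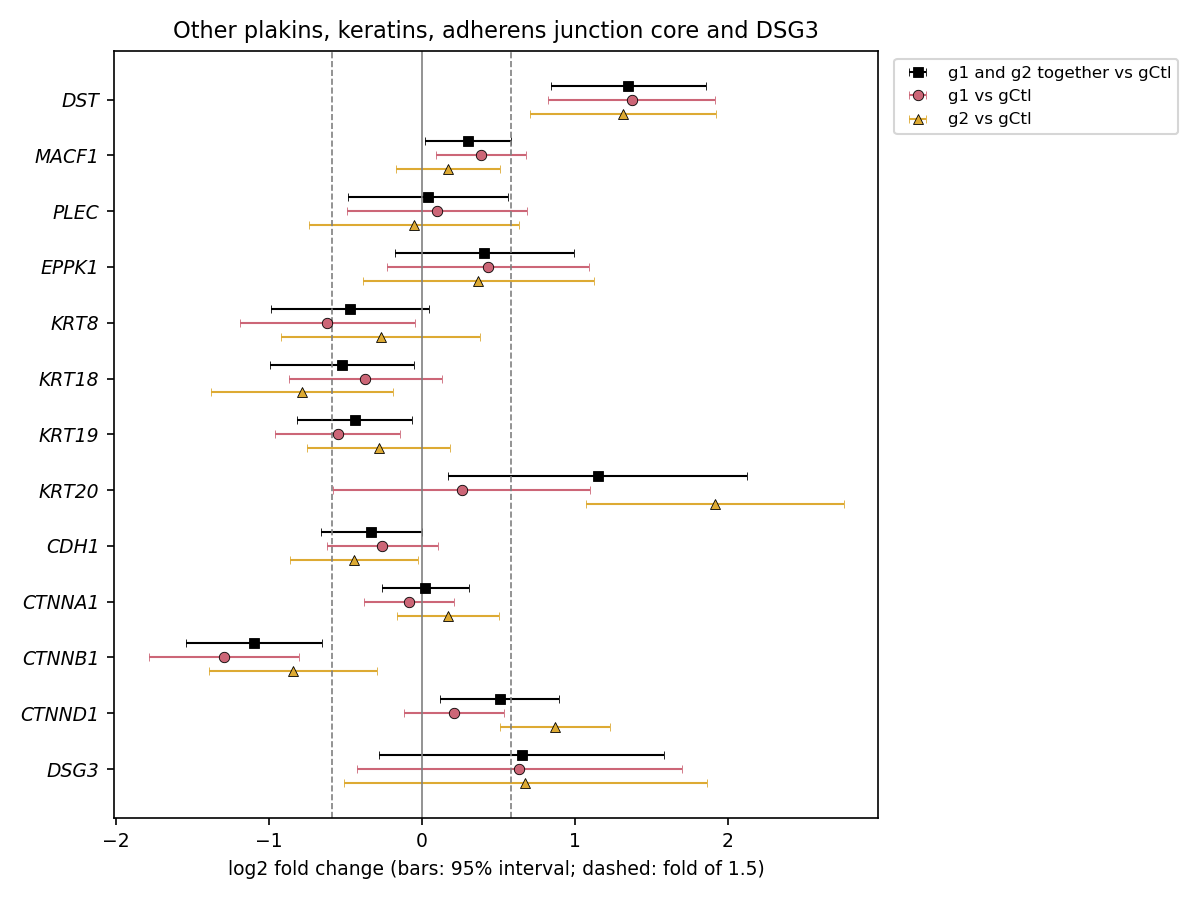
Log2 fold change against gCtl (x axis) of other plakins, keratins, adherens junction genes and DSG3 (y axis) for g1 and g2 together, g1 and g2, with 95% intervals as bars and the 1.5-fold limits dashed. DST lies above the upper limit at 1.35 and CTNNB1 below the lower limit at -1.10 for both guides together, and KRT20 is at 1.91 for g2 and 0.26 for g1.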

How the data were processed

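The data were 10 QuantSeq 3′ libraries of Caco-2 cells. The authors pseudoaligned the reads with Kallisto, and the deposited tables hold estimated counts for 199169 GENCODE release 24 transcripts, neither normalized nor pooled. The submitters' notes give the Kallisto version as 42.5. Estimated counts were summed per gene over all transcripts and rounded. The fits used edgeR 4.0.16 under R 4.3.3 (quasi-likelihood test, TMM, library sizes over all estimated counts), once with g1 and g2 as 1 group and once with 3 groups sharing the spread. Protein-coding genes above 3 RPM in 20% of libraries were tested, 11640 in all. Ratios were compared with exact two-sided permutation tests (scipy 1.17.1, pseudocount 1 RPM). Intervals are at 95%. The alternatives included DESeq2 1.42.0, limma 3.58.1, other scalings, filters and transcript sets, and leaving out each library. The programs were tested on simulated data. Gene positions are from GENCODE release 29 on GRCh38. The members and lists were chosen with earlier results of these data known. All members are named, and of the other lists the called genes and CTNNB1, apart from 1 gene not reported here. DSG3, KRT8, CDH1, DSG1, DSG4 and the uncalled plakins were named after their values were seen.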

Additional observations from a re-analysis of the deposited data

Results flagged for a closer look

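Among 13 sets of 5 gCtl values examined (10 members and 3 ratios), 1 was marked for a library apart from the others. EVPL had 1 count in gCtl replicate 5 and 0 in the other 4 libraries, so that the gap made up a share of 1.0 of the whole range. That share is 1.0 for any gene with counts in only 1 of the 5 libraries, so the mark rests on 1 count. The usual rate of about 1 in 20 groups marked by chance does not hold for such counts.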

How the results depend on the processing

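No paired analysis was possible because the labels carry no replicate numbers. The replicate numbers used here follow the order of the samples within each group. For both guides together, the number of members called went from 0 to 1 with library totals (JUP, lower), with limma (JUP) and with no minimum fold (DSG2). For g1 it went from 1 to 2 with no minimum fold (DSG2 added) and to 0 in the test against a fold of 1.5. For g2 it went from 0 to 1 (DSG2) with DESeq2, with its size factors in edgeR, with coding transcripts alone, with no minimum fold, and with library sizes over the genes tested, an alternative chosen after seeing the data. For g2 against g1 it went from 0 to 1 (JUP) with DESeq2 and with coding transcripts alone. Without single libraries these counts were 0 to 1, 1 to 2, 0 to 1 and 0 to 1. Of 696 alternative values of single members, 632 kept their direction and side of the threshold and 44 changed sign, with absolute log2 values of at most 0.252, or 0.0987 with all libraries. With library totals, the log2 fold change turned to -0.036 for DSC2 (both guides together), -0.0020 for PKP4 (both guides together), -0.020 for PKP2 (g1), -0.027 for PPL (g2), -0.038 for DSG2 (g2 against g1) and -0.092 for PPL (g2 against g1). With the length trend removed, the log2 fold change turned to -0.10 for DSC2 (both guides together), -0.0079 for PKP4 (both guides together), -0.0076 for PKP2 (g1) and -0.039 for DSC2 (g1). With limma, the log2 fold change turned to -0.042 for DSC2 (both guides together), -0.024 for PKP4 (both guides together), -0.030 for PKP2 (g1), -0.0042 for PPL (g2), -0.011 for DSG2 (g2 against g1) and -0.045 for PPL (g2 against g1). With coding transcripts alone, the log2 fold change turned to 0.010 for DSC2 (g2) and 0.10 for PKP4 (g2). Without the filter, the log2 fold change turned to -0.0068 for PPL (g2 against g1). With library sizes over the genes tested, the log2 fold change turned to 0.0092 for DSC2 (g2). Among those whose sign turned when a library was left out, the log2 fold changes ranged from -0.063 to 0.15 for DSC2 (both guides together), -0.021 to 0.24 for PPL (both guides together), -0.27 to 0.049 for PERP (g1), -0.13 to 0.17 for PKP2 (g1), -0.19 to 0.30 for PPL (g1), -0.11 to 0.24 for DSC2 (g1) and -0.0014 to 0.49 for PKP2 (g2). They ranged from -0.37 to 0.10 for PKP4 (g2), -0.34 to 0.25 for DSC2 (g2), -0.45 to 0.12 for JUP (g2), -0.070 to 0.33 for DSG2 (g2 against g1), -0.17 to 0.32 for PPL (g2 against g1), -0.024 to 0.47 for PKP2 (g2 against g1) and -0.43 to 0.16 for DSC2 (g2 against g1). The scaling by library totals raised the share of lower genes among all called genes from 57.5% to 69.4% for both guides together, from 54.9% to 73.3% for g2 and from 68.7% to 83.4% for g2 against g1. It moved the median log2 fold change of all genes to -0.16 for g2 and to -0.10 for g2 against g1. PKP3 and EVPL were limited by depth, as 1 count was 0.115 to 0.26 RPM. The causes of these changes were not tested.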
